A study of Mus musculus with 9 samples.

Results

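Antisense elements in the opening part of mouse genes are the regions described here. An element is a region where engaged RNA polymerase starts transcription, called from PRO-seq signal by the tool dREG and listed by the authors as a whole peak or as a single strand of a peak. The 1996 elements were taken from the 42114 entries of the authors' peak table by their listed place alone: the location class was Antisense, and the position inside the overlapped gene was below 25 percent of that gene. They make up 31.8% of the 6283 antisense entries. The gene that each one lies in is called its host, and the element's transcription runs against the host's. Neither the location nor the position uses a read count, but the peaks themselves were called from PRO-seq signal. An element can thus be listed through the group where it is high. The members were also chosen with earlier results of these data known.

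PRO-seq sequences the nascent RNA held by engaged polymerase, so it measures ongoing transcription and not mature transcript. Promoters and enhancers both start transcription on both strands, and most of the upstream or antisense RNA they make is short and unstable. Antisense initiation just downstream of a promoter can come from a separate start inside the gene or from an intronic enhancer whose second strand points back toward the promoter. In the red cell lineage, the transcription factor GATA1 acts through such intronic and distal elements and both activates and represses the genes it binds.

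The treated cells were G1E-ER4, a line made from the mouse red cell progenitor line G1E and labelled as G1E cells that express GATA1-ER, a fusion of GATA1 to the hormone-binding part of the oestrogen receptor. They were read at 0 h, 13 h and 24 h of 100 nM estradiol, with 3 libraries at 0 h and 2 libraries at each later time. The parental G1E cells gave 2 libraries without estradiol, and their label gives no genotype although the line is known as GATA1-null. Thus the 0 h cells already carry the fusion, and the G1E cells do not. Both lines are single established lines grown with erythropoietin and kit ligand. The labels do not say that libraries of a group came from separate cultures, so p-values measure only the spread between these libraries.

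Gene-body reads totalled 37830789 to 139945759 per library and element reads 15394427 to 59952454, and 1538 to 1849 of the 1996 elements had a read in a given library. The summed gene-body level of 12 erythroid marker genes was 1650 to 1900.0 CPM (counts scaled to a common library total) at 0 h, 5002 to 5659 at 13 h, 8710 to 8758 at 24 h and 1868 to 3225 in G1E. The 8 mast cell and basophil genes, with Mcpt8 at 0 in every library, summed to 37.0 to 85.1 CPM at 0 h, 2.21 to 2.32 at 13 h, 0.818 to 0.991 at 24 h and 30.5 to 54.5 in G1E. The 7 megakaryocyte genes summed to 23.5 to 32.4, 13.5 to 28.6, 17.95 to 24.3 and 47.8 to 48.7 CPM in the same order of groups. The 7 granulocyte and monocyte genes, with S100a8 and S100a9 at 0, stayed between 0.131 and 1.098 CPM, and the 8 lymphocyte genes between 0.887 and 4.70. These marker levels move with time, and their part in the element results was not tested. In a bulk library, fewer cells of a type and less RNA per cell cannot be told apart. Gene-body reads of Gata1 itself were 188 to 257 CPM at 0 h, 214 to 280 at 13 h, 300.7 to 300.9 at 24 h and 164 to 214 in G1E. Such reads do not check the disruption of the gene, since they can come from a disrupted locus or from the fusion.

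The position of an element is measured against the start of its host, so the 250 bases before the start are shown for 4 hosts on which the results turn. Kit encodes the stem cell factor receptor, Bcl11a a repressor of embryonic and fetal globin genes, Hic2 a transcriptional repressor that in human red cell precursors represses BCL11A, and Pla2g6 a calcium-independent phospholipase A2. The sequences are RefSeq's, 5′ to 3′ on the host strand, in build GRCm38.p6, at chr5:75574737-75574986 (+) for Kit, chr11:24080445-24080694 (+) for Bcl11a, chr16:17233337-17233586 (+) for Hic2 and chr15:79328372-79328621 (-) for Pla2g6. Element coordinates in the rest of the text are in the authors' build, mm9, and cannot be set against these.
Kit: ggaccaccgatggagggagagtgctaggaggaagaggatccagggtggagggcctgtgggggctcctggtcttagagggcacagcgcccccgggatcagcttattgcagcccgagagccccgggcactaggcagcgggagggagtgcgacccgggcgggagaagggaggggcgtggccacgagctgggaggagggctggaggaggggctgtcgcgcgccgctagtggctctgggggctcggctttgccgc
Bcl11a: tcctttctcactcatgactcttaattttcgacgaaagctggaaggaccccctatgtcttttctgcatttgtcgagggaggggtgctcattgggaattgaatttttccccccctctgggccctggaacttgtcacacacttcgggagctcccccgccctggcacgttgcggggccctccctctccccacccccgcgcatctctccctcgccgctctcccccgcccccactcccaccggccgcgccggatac
Hic2: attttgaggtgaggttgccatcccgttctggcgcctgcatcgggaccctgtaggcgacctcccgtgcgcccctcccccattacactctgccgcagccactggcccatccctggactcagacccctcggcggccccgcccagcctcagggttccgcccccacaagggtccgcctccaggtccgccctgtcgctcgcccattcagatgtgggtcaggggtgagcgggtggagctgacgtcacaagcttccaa
Pla2g6: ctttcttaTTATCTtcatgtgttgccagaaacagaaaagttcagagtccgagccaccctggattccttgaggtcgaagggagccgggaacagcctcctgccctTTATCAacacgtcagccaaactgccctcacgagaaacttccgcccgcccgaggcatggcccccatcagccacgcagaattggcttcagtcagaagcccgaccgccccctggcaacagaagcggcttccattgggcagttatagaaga

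Capitals mark the GATA motifs AGATAA and TGATAA, searched on both strands and so also as TTATCT and TTATCA; the motifs do not overlap each other here. Pla2g6 holds TTATCT at 242 bases and TTATCA at 147 bases before the start, and Kit, Bcl11a and Hic2 hold no match in this window. Of 32851 promoters of that length in the table, 16.6% held a match, and so did 10.5% of the 1557 promoters that could be found for host genes. Names of 1093 of the 1460 listed host entries were found, where the joined names of an element with several hosts count as a single entry. These are letter matches only.

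Of the 1996 elements, 1980 list a single host and 16 list several. The 1980 lie in 1447 host genes, of which 1093 hold 1 element, 243 hold 2 and 111 hold 3 or more, with 8 at most. The plus strand carries 1016 of the 1996 elements and the minus strand 980. Their median width was 1001 bases (351 to 9751). The distance from an element's midpoint to the nearest listed start upstream of it on the host strand had a median of 9230 bases, with quartiles of 4690 and 17969.8. Listed starts are the gene starts that the authors give with the regulatory elements, so the nearest one need not be the host's own. Only 50 elements lay within 1 kb of any listed start, and 927 lay over 10 kb along. Nearly all, 1991, are paired in the table with a sense-strand element of the same peak, and all 1996 carry the authors' mark for regulatory elements. Just inside the position limit are elements of Metap2, Nt5c3 and Map4, at 24.9794, 24.9819 and 24.9857 percent, with 23.3, 99.7 and 46.3 mean reads. Just outside it are elements of Tmem9, Elf1 and Dtd1, at 25.0093, 25.0257 and 25.0378 percent, with 68.6, 10.3 and 2.22 mean reads.

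Most of the elements are weak. Mean reads per library were under 10 for 1011 of them and 50 or more for 336, and 1036 had a read in all 9 libraries. In 54 cases the element had more reads than the body of its host in some library, counting only libraries with at least 10 element reads. The filter on low counts, which looks at all groups, kept 1328 of the 1996, and 668 were not tested. An element can pass that filter through the group where it is high, so counts below are for the 1328 that passed.

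Among the G1E-ER4 libraries, those of 13 h had the largest share of reads in these elements, though the design is too small for a test to call it. The elements held 0.414% and 0.416% of all single-strand element reads at 13 h, against 0.392%, 0.261% and 0.260% at 0 h. At 24 h the share was 0.287% and 0.257%, and in G1E 0.438% and 0.329%. The 13 h libraries lay above every 0 h and 24 h library, while the first 24 h library lay within the 0 h range and the second just below it. The mean share was 0.415% ± 0.00137 at 13 h (SD, n = 2), against 0.304% ± 0.0759 at 0 h (SD, n = 3), a difference of 0.111 points with a two-sided exact permutation p of 0.2, the smallest that 2 against 3 libraries allow. At 24 h it was 0.272% ± 0.0213, against 0.415% ± 0.00137 at 13 h (SD, n = 2 each), a difference of -0.143 points with an exact permutation p of 0.333, again the smallest possible. Counted against gene-body reads, the class held 1046 ± 43.6 CPM at 13 h and 769 ± 141 CPM at 0 h (SD). The 24 h share differed from the 0 h share by -0.0322 points (exact permutation p = 0.8), a difference of the other sign, 0.0116, when the first 0 h library is left out. The 0 h share differed from the G1E share by -0.0791 points (exact permutation p = 0.4). With the element with most reads left out of the total, shares were 0.478% and 0.465% at 13 h. They were then 0.457%, 0.311% and 0.353% at 0 h, 0.319% and 0.283% at 24 h, and 0.533% and 0.426% in G1E. The differences were 0.0984 points at 13 h and -0.0725 at 24 h, both against 0 h. They were -0.171 at 24 h against 13 h and -0.106 at 0 h against G1E.

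Each element was then tested by edgeR's quasi-likelihood test on the counts, with p-values adjusted over all 35158 elements that passed the filter and a threshold of 0.05. At 13 h against 0 h, 300 of the 1328 elements rose and 191 fell. That is 22.6% and 14.4%, beside a background over all elements of 15.2% higher and 18.6% lower. At 24 h against 0 h, 254 were higher and 383 lower (19.1% and 28.8%, background 22.7% and 29.5%). The share that fell was near that over all elements, where decreases also outnumbered increases, and the share that rose was somewhat below it. For 24 h against 13 h, 8 were higher and 110 lower (0.602% and 8.28%, background 5.28% and 7.82%), so the share that fell was near that over all elements and the share that rose was below it. At 0 h against G1E, 72 were higher and 138 lower (5.42% and 10.4%, background 7.18% and 12.1%). The median log2 fold change of the 1328 was -0.03, -0.46, -0.67 and -0.24 in these 4 comparisons, against -0.13, -0.18, -0.08 and 0.01 over all elements. The 13 h and 24 h comparisons share the 0 h libraries, so their counts are given side by side only.

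Single libraries carry part of these counts. The number that fell at 13 h was 105 without the first 13 h library and 86 without the second, and the number that fell at 24 h against 0 h was 254 without the second 24 h library. The 110 lower at 24 h against 13 h became 50 and 66 without the first and second 13 h library, and 60 and 15 without the first and second 24 h library. The 8 higher became 20 and 18 without the first and the third 0 h library, 3 and 4 without the first and the second 13 h library, and 0 by edgeR without the second 24 h library, where 27 had an unadjusted p under 0.05. At 0 h against G1E, the 72 higher became 18 and 37 without the first and the second G1E library, and the 138 lower became 41 without the first. No number series in the library titles holds both 13 h and 24 h libraries, and with that series as a block the 8 and 110 became 1 and 27.

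Antisense elements further along the gene, from 25 percent on, gave 571 higher and 524 lower of 2870 tested at 13 h against 0 h (19.9% and 18.3%), and 471 higher and 968 lower at 24 h against 0 h (16.4% and 33.7%). Their median at 24 h against 0 h was -0.76, below the -0.46 of the elements near the start. Sense-strand single elements in the same opening part of genes had more increases than decreases at 24 h, with 590 higher and 335 lower of 1869 at 24 h against 0 h (31.6% and 17.9%) and a median of 0.26. At 24 h against 13 h the sense elements counted 209 higher and 54 lower, with a median of 0.35, where the antisense ones had 8 and 110. Sense-strand reads inside a gene can include transcription of the host itself, so the strands are not like measures of an element. How much of the difference this makes was not tested.

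**Figure D1:**
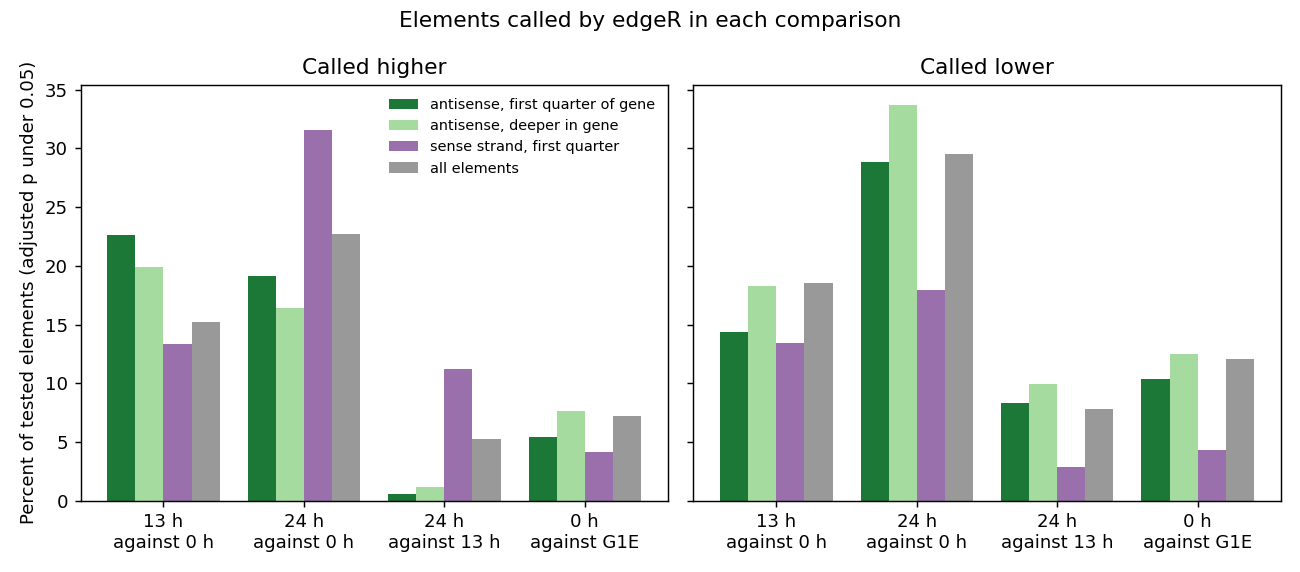
Percent of tested elements called higher or lower by edgeR in each comparison, for antisense elements below 25 percent of the host, antisense elements from 25 percent on, sense single-strand elements below 25 percent, and all elements. The antisense elements near the start had 22.6% higher at 13 h against 0 h and 0.602% higher at 24 h against 13 h.

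Elements in Adssl1, Hic2 and Pla2g6 were among those that rose at 13 h against 0 h. An element was named for a large change only if the compared groups did not overlap. That gap is therefore no added support for its change. In Adssl1, which encodes an adenylosuccinate synthase isozyme, the minus-strand element at chr12:113861050-113862551 had 4.59 and 6.43 CPM at 13 h, against 0.294, 0.0621 and 0.113 CPM at 0 h. Element CPM takes TMM-scaled element reads as its total, and it is not divided by length, so levels are compared only between libraries of 1 element. Both 13 h libraries lay far above all 3 at 0 h, a log2 fold change of 5.11 ± 0.58 (SE, edgeR adjusted p = 2.35e-05). The body of Adssl1 rose as well, by 2.00 ± 0.38 (SE, edgeR adjusted p = 0.00217). At 24 h the element had 1.15 and 0.590 CPM, below both 13 h libraries (-2.65 ± 0.58 at 24 h against 13 h, edgeR adjusted p = 0.0116).

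Hic2 carried an element at chr16:17237200-17238201, at 13.5 percent of the gene. It had 0.107, 0.218 and 0.151 CPM at 0 h, 3.18 and 6.11 CPM at 13 h, and 3.05 and 4.47 CPM at 24 h. The log2 fold change was 4.86 ± 0.50 at 13 h (SE, edgeR adjusted p = 1.07e-05) and 4.55 ± 0.50 at 24 h (adjusted p = 7.25e-06), both against 0 h. The 24 h and 13 h libraries overlapped, with a change of -0.31 ± 0.46 between them (edgeR adjusted p = 0.69). The Hic2 body rose too, by 1.54 ± 0.17 at 13 h and by 2.87 ± 0.18 at 24 h (SE, edgeR adjusted p = 0.000113 and 1.17e-06).

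In Pla2g6, whose promoter is printed above with both GATA motifs, the plus-strand element at chr15:79150650-79154701 had 63.3 and 96.4 CPM at 13 h, against 3.80, 4.44 and 3.20 CPM at 0 h, a log2 fold change of 4.39 ± 0.34 (SE, edgeR adjusted p = 1.48e-06). It was lower again at 24 h, with 24.1 and 18.3 CPM, still above every 0 h library. The fall at 24 h against 13 h was -1.91 ± 0.36 (SE, edgeR adjusted p = 0.00604), and it was not called without the second 24 h library (-1.76, adjusted p = 0.066). The host's gene body was also higher at 13 h, by 0.86 ± 0.15 (SE, edgeR adjusted p = 0.00144).

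Other named elements that rose at 13 h against 0 h, with the log2 fold change by edgeR, were in Ccdc12 (4.65), Tmem64 (4.45), Tnrc18 (4.22), Coro1c (3.92), a coronin that binds actin, and Ppp1r9b (3.78), the scaffold spinophilin. In each of these the 13 h libraries lay above all 0 h libraries, which for all but Ppp1r9b was a condition of naming. For Coro1c the values were 8.41 and 6.40 CPM at 13 h, against 0.696, 0.373 and 0.397 CPM at 0 h. At 24 h the Coro1c element had 2.14 and 1.49 CPM.

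An element in Arhgap12, which encodes a GTPase-activating protein, had no read at 13 h. It lies at chr18:6129050-6130751 and had 0 CPM in both 13 h libraries, against 1.39, 1.83 and 3.498 CPM at 0 h (296 reads). Setting 3 reads as the limit over both 13 h libraries, it was at least 57.0-fold lower at 13 h (edgeR adjusted p = 2.67e-05). At 24 h it had 0.0267 and 0.0310 CPM, which is 2 reads, and in G1E 8.14 and 12.8 CPM. The gene body of Arhgap12 was higher at 24 h, with 168 and 168 CPM, against 64.7, 61.2 and 72.6 CPM at 0 h (log2 fold change 1.34 ± 0.16, edgeR adjusted p = 4.65e-05).

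Ppp6r1, a regulatory subunit of protein phosphatase 6, and Il17ra, the interleukin 17 receptor, held further elements that fell early and stayed low. The Ppp6r1 element had 0.0867 and 0.168 CPM at 13 h, against 2.76, 3.42 and 4.14 CPM at 0 h, a log2 fold change of -4.69 ± 0.61 (SE, edgeR adjusted p = 6.89e-05). The Il17ra element had 0.0578 and 0.216 CPM at 13 h, against 5.30, 2.14 and 2.84 CPM at 0 h (-4.57 ± 0.67, adjusted p = 0.000188). The changes of these elements at 24 h against 0 h were -4.89 and -5.50. An element in Atf1, a CREB-family factor, had 0.202 and 0.408 CPM at 13 h, against 4.39, 7.21 and 37.2 CPM at 0 h. Its 0 h libraries differ widely, and its change of -5.70 ± 1.06 (SE, edgeR adjusted p = 0.00309) was no longer called without the first 13 h library (-5.31, adjusted p = 0.0552).

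At 24 h against 0 h, elements of Gypc, Larp1, Ppp1r9b and Actn4 were among those that rose. Gypc encodes glycophorin C, a red cell membrane protein, and its plus-strand element at chr18:32711250-32715301 had 24.5 and 33.2 CPM at 24 h, against 1.44, 1.21 and 1.04 CPM at 0 h. Its 13 h libraries, at 9.16 and 9.42 CPM, lay between those groups without overlap. The log2 fold change at 24 h against 0 h was 4.55 ± 0.30 (SE, edgeR adjusted p = 1.32e-07). The rise at 24 h against 13 h, 1.64 ± 0.31 (adjusted p = 0.00584), was not called without the second 24 h library (1.37, adjusted p = 0.0726).

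Larp1 encodes a protein that binds mRNAs of ribosomal proteins. Its element at chr11:57827000-57832551 had 3.32 and 6.49 CPM at 24 h, against 0.0268, 0.155 and 0.473 CPM at 0 h (log2 fold change 4.37 ± 0.65, edgeR adjusted p = 0.000102). The Ppp1r9b element had 4.65 and 4.38 CPM at 24 h, against 0.187, 0.155 and 0.321 CPM at 0 h (4.29 ± 0.44, edgeR adjusted p = 4.64e-06). For Actn4, an alpha-actinin, the values were 17.5 and 14.3 CPM at 24 h, against 0.883, 2.02 and 0.397 CPM at 0 h (3.89 ± 0.57, edgeR adjusted p = 0.000148). In all of these the element was already up at 13 h.

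Several elements that fell by 24 h had intermediate levels at 13 h. In St7 the element at chr6:17717900-17723451 had 5.35, 7.71 and 6.24 CPM at 0 h, 0.924 and 2.21 CPM at 13 h, and 0.160 and 0.186 CPM at 24 h. No time point overlapped another, while G1E, with 5.96 and 3.71 CPM, overlapped 0 h. The change was -5.19 ± 0.55 at 24 h against 0 h (SE, edgeR adjusted p = 5.43e-06) and -3.16 ± 0.56 at 24 h against 13 h (adjusted p = 0.00416). Ikzf2, which encodes the Ikaros-family factor Helios, showed the same steps, with 5.56, 3.05 and 3.44 CPM at 0 h, 0.780 and 0.815 CPM at 13 h, and 0.107 and 0.0310 CPM at 24 h (-5.75 ± 0.64 at 24 h against 0 h, edgeR adjusted p = 8.06e-06). Acot11, an acyl-CoA thioesterase gene, had 10.8, 2.95 and 3.89 CPM at 0 h, 1.13 and 0.623 CPM at 13 h, and 0.160 and 0.0931 CPM at 24 h (-5.48 ± 0.74, edgeR adjusted p = 4.21e-05).

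Rptor and Samd8 held elements that fell between 13 h and 24 h. Rptor encodes the mTORC1 subunit raptor, and its element at chr11:119517600-119519951 had 0.348 and 0.124 CPM at 24 h, against 1.79 and 3.14 CPM at 13 h. At 0 h it had 4.95, 3.45 and 2.97 CPM, which overlaps the 13 h values. The fall at 24 h against 13 h was -3.34 ± 0.56 (SE, edgeR adjusted p = 0.00337), and with the title-number series as a block it was -2.81 (adjusted p = 0.0723). The body of Rptor had a log2 fold change of 0.01 ± 0.12 in that comparison (edgeR adjusted p = 0.961). In Samd8, a sphingomyelin synthase relative, the element had 1.90 and 1.46 CPM at 24 h, against 10.3 and 7.39 CPM at 13 h (-2.39 ± 0.41, edgeR adjusted p = 0.00353).

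Those that rose at 24 h against 13 h numbered 8, and Inpp5d, the gene of the phosphatase SHIP1, held one of them. Its element had 23.7 and 21.7 CPM at 24 h, against 11.7 and 4.51 CPM at 13 h, a log2 fold change of 1.49 ± 0.41 (SE, edgeR adjusted p = 0.0315). The groups did not overlap, but the call was lost without the second 13 h library (0.96, adjusted p = 0.19), without the first or the second 24 h library (1.42 and 1.53, adjusted p = 0.0957 and 0.118) and with the title-number series as a block (1.43, adjusted p = 0.0876). Another element of Inpp5d fell in the same comparison.

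The share of calls in each direction is given by distance from the listed start. Of 270 tested elements over 20000 bases along, 18.9% were higher and 17.8% lower at 13 h against 0 h, and 11.1% were higher and 40.4% lower at 24 h against 0 h. Of 357 tested elements at 5000 to 10000 bases, 27.7% were higher and 14.6% lower at 13 h, and 23.5% higher and 26.3% lower at 24 h. In the nearest class, under 2000 bases, 48 elements were tested, with 12.5% higher and 16.7% lower at 13 h and 18.8% higher and 37.5% lower at 24 h. The share that fell at 24 h against 13 h was 4.17%, 4.98%, 8.12%, 8.73% and 12.6% from the nearest to the farthest class, beside 7.82% over all elements. These shares rest on the 110 that fell, which became 15 without the second 24 h library and 27 with the title-number series as a block. Differences between distance classes were not tested. Median mean reads in the same order were 8.11, 10.3, 10.2, 9.78 and 8.72. The part of gene length in this was not tested.

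**Figure D2:**
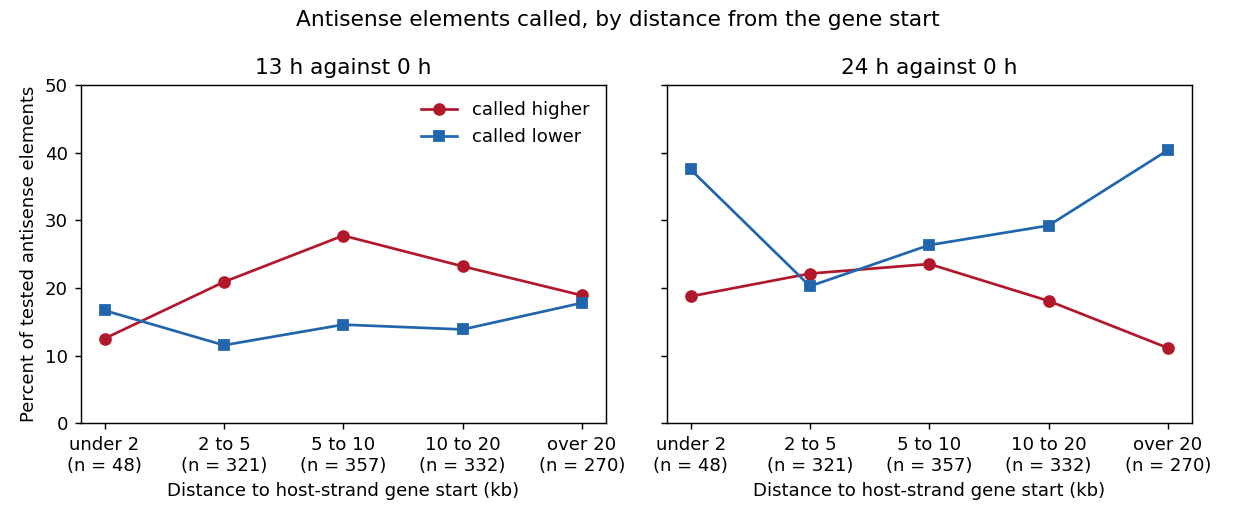
Percent of tested antisense elements called higher (red circles) or lower (blue squares) by edgeR at 13 h and at 24 h against 0 h, by distance in kb from the listed host-strand start, with the number tested under each class. The class over 20000 bases has 40.4% lower at 24 h against 0 h, and the class of 2000 to 5000 bases has 20.2%.

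The gene bodies of the hosts were also tested. Of 1015 hosts tested, 315 were higher and 223 lower at 13 h against 0 h (background 20.1% and 20.9%), 466 and 257 at 24 h against 0 h (background 29% and 30.7%), 265 and 95 at 24 h against 13 h (background 11.7% and 12.5%), and 100 and 106 at 0 h against G1E (background 7.88% and 9.58%). The split depends on the scaling: with library totals in place of TMM it was 324 higher and 366 lower at 24 h against 0 h and 120 and 179 at 24 h against 13 h. Library totals moved the median over all gene bodies by -0.39 and -0.29 in those comparisons. Without the first 13 h library the 223 became 136. For 24 h against 13 h the 265 became 165 and the 95 became 57 without the second 13 h library, and 146 and 45 without the second 24 h library. At 0 h against G1E the 100 became 64 and 54 without the first and the second G1E library, and the 106 became 43 without the first G1E library and 64 and 60 without the second and the third 0 h library. With the title-number series as a block, hosts higher and lower became 8 and 4 at 24 h against 13 h and 28 and 48 at 0 h against G1E, and with the replicate number as a block 66 and 59 at 0 h against G1E. Host gene-body CPM uses gene-body reads as its total, so it is another scale than element CPM.

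Called elements lay in hosts that rose, fell or were not called. Of the 300 elements that rose at 13 h against 0 h, 148 had a host that rose, 37 a host that fell and 112 a host that was not called, among the pairs that could be tested. Of those that fell, 47 had a host that rose, 48 a host that fell and 93 a host that was not called. Hosts rose in 49.8% of the pairs whose element rose, beside 32.9% of all 1315 pairs, and fell in 25.5% of the pairs whose element fell, beside 20.8% of all pairs. At 24 h against 0 h, 152 of the elements that fell had a host that rose, 113 a host that fell and 109 one not called. That is 40.6% with a host that rose, beside 48.6% of all pairs and 62.7% of the pairs whose element rose. These host calls use TMM, and their split turns with library totals, as given above. Over the 1315 pairs the Pearson correlation of the log2 fold changes was 0.24 at 13 h, 0.25 at 24 h, 0.21 at 24 h against 13 h and 0.29 at 0 h against G1E, as a description. The pairs share libraries and depth, hosts repeat, and reads on the antisense strand may enter a gene-body count. For 2801 pairs from 25 percent on, it was 0.13, 0.11, 0.09 and 0.24.

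**Figure D3:**
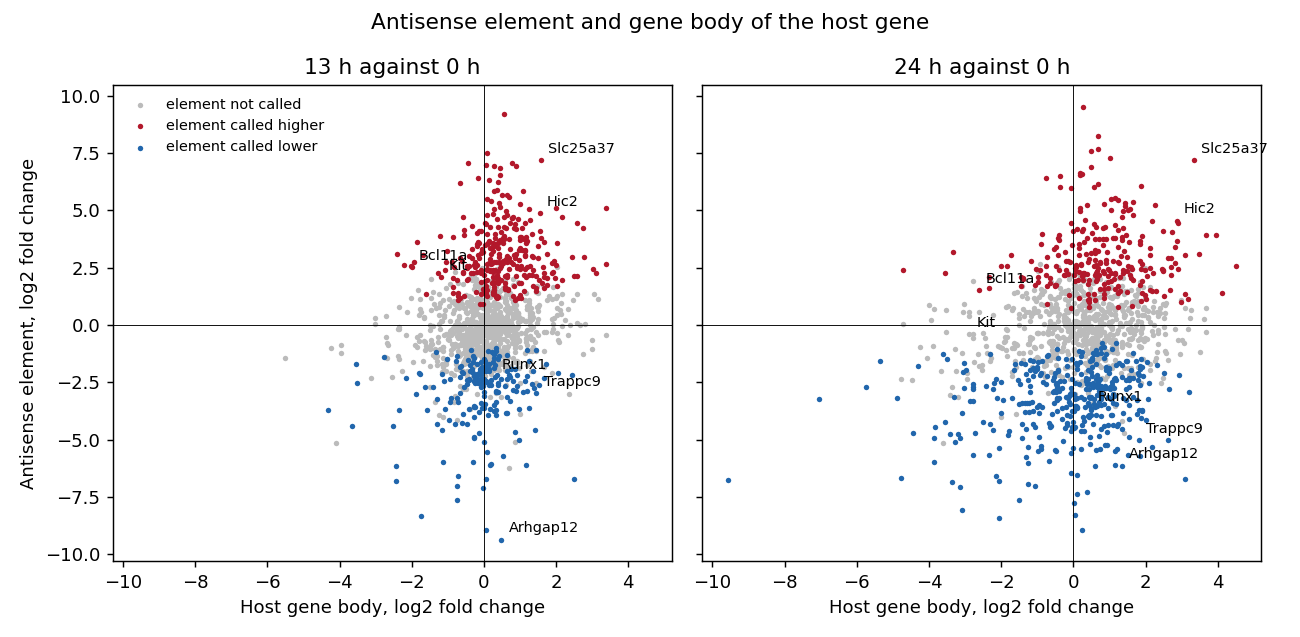
Log2 fold change of each antisense element against that of its host's gene body, 1 point for each of 1315 tested pairs, at 13 h and at 24 h against 0 h, coloured by the edgeR call of the element and with 7 genes of the text named. The cloud is broad, with a Pearson correlation of 0.24 at 13 h against 0 h and 0.25 at 24 h against 0 h.

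The ratio of element to host was tested directly with limma on the log2 values with 1 read added. It was higher for 244 and lower for 140 of 1315 pairs at 13 h against 0 h (background 7.28% and 4.61%), and higher for 206 and lower for 354 at 24 h against 0 h (background 12.8% and 11.6%). At 24 h against 13 h it was higher for 2 and lower for 71 (background 0.424% and 1.45%), and at 0 h against G1E higher for 44 and lower for 58 (background 1.9% and 2.27%). With the title-number series as a block these became 0 and 0 by limma at 24 h against 13 h, where 43 and 175 had an unadjusted p under 0.05, and 4 and 4 at 0 h against G1E. With each table's own TMM scaling they were 11 and 161 at 24 h against 13 h and 67 and 104 at 0 h against G1E. The 71 became 1 and 0 without the first and the second 13 h library, 32 and 0 without the first and the second 24 h library, and 25 and 45 without the second and the third 0 h library. Where leaving out a library gave 0 by limma, 295 and 255 pairs had an unadjusted p under 0.05. At 0 h against G1E the 44 became 24 and 27, and the 58 became 12 and 18, without the first and the second G1E library, and they became 25 and 24 without the second 0 h library. The 244 became 64 and 84, and the 140 became 47 and 69, without the first and the second 13 h library, and the 244 became 156 without the third 0 h library. For 24 h against 0 h the 206 became 103 and 113 without the first and the second 24 h library, and the 354 became 229 without the second. In percent, the ratio was higher for 18.6% and lower for 10.6% at 13 h against 0 h. It was higher for 15.7% and lower for 26.9% at 24 h against 0 h. For the 2801 pairs from 25 percent on, the values were 16.6% and 14.1% at 13 h, and 16.7% and 30.2% at 24 h. Both antisense classes thus lay above the background over all pairs at 13 h and at 24 h against 0 h. That background also holds sense-strand elements and whole peaks inside genes, whose reads can include transcription of the host itself. It is thus not a like background for antisense elements, and the part of this in the difference was not tested. Against the sense strand of the same peak, the antisense strand of the elements near the start was higher in 284 and lower in 164 of 1248 pairs at 13 h against 0 h (background 21.2% and 15.6%), and higher in 236 and lower in 379 at 24 h against 0 h (background 18.5% and 33%). It was higher in 14 and lower in 159 at 24 h against 13 h (background 1.26% and 12.2%), and at 0 h against G1E higher in 46 and lower in 71 (background 5% and 6.49%). This background is over 3880 pairs, made up of these 1248 and 2632 from 25 percent on. A change in this ratio can also come from host transcription read on the sense strand, which was not tested.

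In Trappc9, a subunit of the TRAPP vesicle-tethering complex, element and host changed in opposite directions. The element at chr15:72800450-72803851 had 0.107 and 0.0931 CPM at 24 h, against 5.48, 2.64 and 2.10 CPM at 0 h. The body of the gene had 894 and 868 CPM at 24 h, against 257, 252 and 236 CPM at 0 h. So the element fell by 5.03 ± 0.57 while its host rose by 1.83 ± 0.12 (SE, edgeR adjusted p = 9.53e-06 and 1.75e-06), and the ratio changed by -6.33 (limma adjusted p = 7.66e-05). Crtc3, a coactivator of CREB, and Specc1 also had a lower ratio, with changes of -5.63 and -5.02 at 24 h against 0 h (limma adjusted p = 4.19e-05 and 0.000246).

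The reverse, an element up in a falling host, was seen in Ctbp2, a transcriptional corepressor. Its element had 16.7 and 18.8 CPM at 24 h, against 2.996, 1.46 and 2.04 CPM at 0 h, and its body 66.1 and 64.4 CPM at 24 h, against 199, 224 and 221 CPM at 0 h. The gene-body values of the groups did not overlap, and the ratio rose by 4.902 (limma adjusted p = 0.000394).

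Among regulators of progenitor cells, Bcl11a and Kit each also had an element that rose at 13 h in a host that fell. The Bcl11a element at chr11:23999250-24001751, 19805.5 bases from the start, had 0.482, 0.466 and 0.567 CPM at 0 h, 3.15 and 2.69 CPM at 13 h, and 1.497 and 1.40 CPM at 24 h. It was up at both times, by 2.52 ± 0.42 (SE, edgeR adjusted p = 0.000486) and 1.51 ± 0.42 (adjusted p = 0.0087), the second not called with the title-number series as a block (1.35, adjusted p = 0.0616). Meanwhile the Bcl11a body fell by 2.00 ± 0.32 at 13 h and by 2.63 ± 0.34 at 24 h (SE, edgeR adjusted p = 0.000941 and 8.65e-05). Kit has 2 elements here, and only the stronger was called at 13 h against 0 h. The stronger, at chr5:75974250-75976501, had 4.17, 2.83 and 2.80 CPM at 0 h, 14.5 and 13.0 CPM at 13 h, and 3.13 and 1.80 CPM at 24 h, so both 13 h libraries lay above every other library. The Kit body had a change of -1.18 ± 0.32 at 13 h (SE, edgeR adjusted p = 0.014), not called without the first 13 h library (-0.89, adjusted p = 0.126). The Kit element's rise at 13 h was 2.07 ± 0.33 and its fall at 24 h against 13 h -2.48 ± 0.39 (SE, edgeR adjusted p = 0.000361 and 0.00241).

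Runx1, a factor of blood stem cells, held 3 elements. The one at chr16:92800600-92802701 had 6.34, 2.49 and 2.40 CPM at 0 h, 0.722 and 0.839 CPM at 13 h, and 0.428 and 0.155 CPM at 24 h, with a change of -3.64 ± 0.60 at 24 h against 0 h (SE, edgeR adjusted p = 0.000204). The one nearer the start, at chr16:92818850-92819901, had 0.462 and 0.647 CPM at 13 h, against 0.187, 0 and 0.113 CPM at 0 h (2.39 ± 0.81, edgeR adjusted p = 0.0355), a call that was lost without the second or the third 0 h library (1.93 and 2.49, adjusted p = 0.0655 and 0.0709) and without the first or the second 13 h library (2.61 and 2.12, adjusted p = 0.0725 and 0.156). The third had 0.0867 and 0.216 CPM at 13 h, against 0.268, 0.466 and 0.227 CPM at 0 h, and was not called. The Runx1 body was not called at either time. An element in Erg, an ETS factor of stem cells, had 0.0535 and 0.0310 CPM at 24 h, which is 3 reads, against 1.85, 0.528 and 1.78 CPM at 0 h. The counting ratio was 34.1 (95% interval 11.5 to 167), lower at 24 h.

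**Figure D4:**
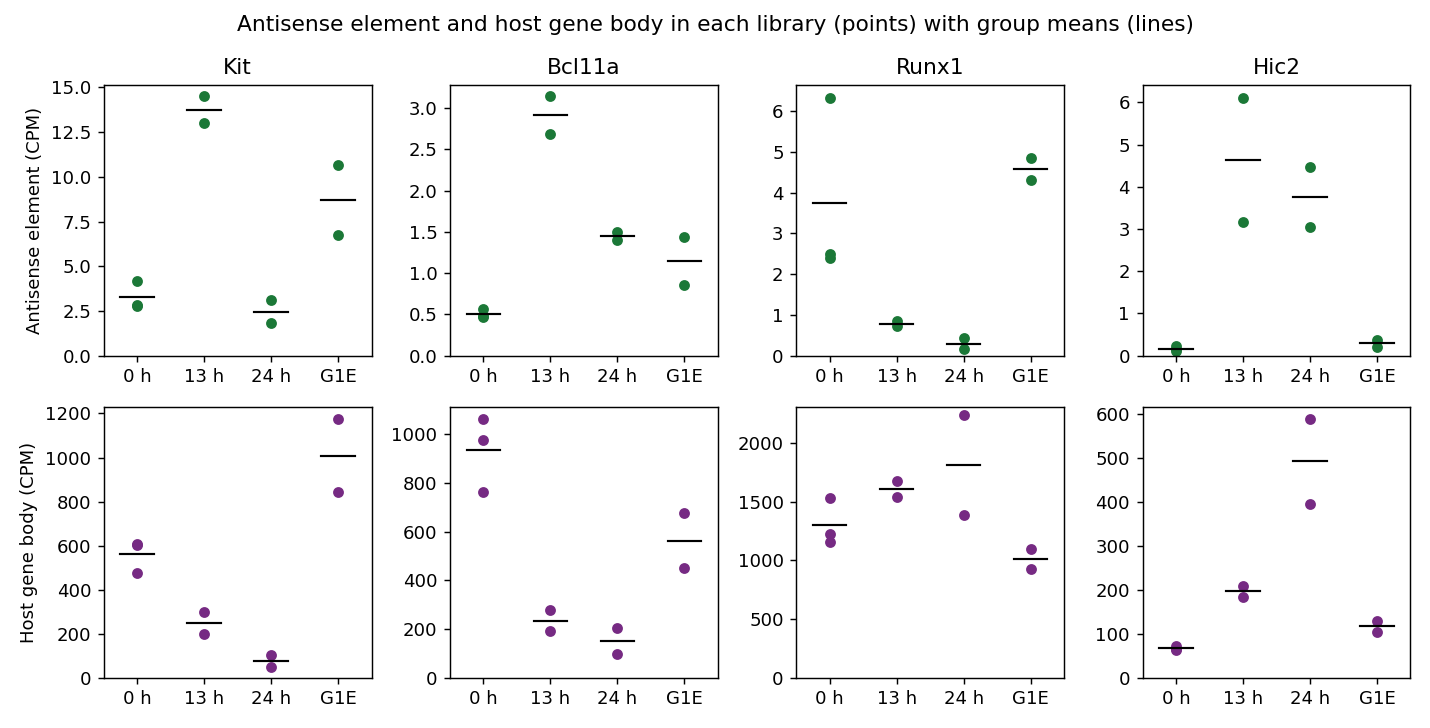
CPM of the named antisense element (top) and of the host's gene body (bottom) in Kit, Bcl11a, Runx1 and Hic2, by group. Points are libraries and lines are group means, and the Kit element stands at 14.5 and 13.0 CPM at 13 h while the Kit body is lower than at 0 h.

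The gene lists were chosen with earlier results of these data known, and give counts only. Over all elements, 15.2% rose and 18.6% fell at 13 h against 0 h, and 22.7% rose and 29.5% fell at 24 h against 0 h; with so few members in a list, nothing is read from a difference from these shares. Of 11 tested elements in genes of globins and the red cell membrane, 2 rose at 13 h against 0 h, and 3 rose and 1 fell at 24 h against 0 h, while 7 of the 9 hosts rose at 24 h. Median log2 fold changes of those elements were 0.01 and -0.56. Of 13 tested in erythroid transcription factor genes, 4 rose and 1 fell at 13 h, and 3 rose and 4 fell at 24 h. Of 10 in stem and progenitor regulators, 2 rose and 1 fell at 13 h, and 4 fell at 24 h, with medians of -0.43 and -1.04. Cell cycle genes gave 3 higher and 1 lower of 10 at 13 h and 4 higher and 3 lower at 24 h, and chromatin modifiers 5 higher and 3 lower of 19 at 13 h and 3 and 3 at 24 h. Of 2 tested in iron genes, Aco1 and Steap3, 1 rose at each time, as did 1 of 2 in signalling genes and the 1 in Rrp12, the single host in the list of ribosome biogenesis. Autophagy and apoptosis genes gave 2 higher of 4 at 13 h and 1 at 24 h, and the megakaryocyte list, all in Itgb3, 2 of 3 and 1 of 3. The granulocyte list held 2 elements, which did not pass the filter, and the mast cell and lymphocyte lists held none.

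The list of haem synthesis held elements in Slc25a37 and Fech, and both rose at 24 h against 0 h, as did 1 of them at 13 h. Slc25a37 encodes mitoferrin 1, which carries iron into mitochondria, and its element had 0, 0.0311 and 0 CPM at 0 h, 2.40 and 1.06 CPM at 13 h, and 1.47 and 1.95 CPM at 24 h. That is 127 reads at 13 h against 1 read at 0 h, with a counting ratio of 204 (95% interval 35.9 to 8111). The Slc25a37 body rose by 1.57 ± 0.14 at 13 h and by 3.34 ± 0.15 at 24 h (SE, edgeR adjusted p = 3.62e-05 and 2.99e-07). Fech encodes ferrochelatase, the last enzyme of haem synthesis, and its element had 0.802 and 0.714 CPM at 24 h, against 0.268, 0.0311 and 0.132 CPM at 0 h (2.35 ± 0.75, edgeR adjusted p = 0.017). Without the first 24 h library the Fech call was lost (2.27, adjusted p = 0.0676).

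In Ank1 and Rhd the host rose and the element was not called. Ank1 encodes ankyrin 1, and its element had 6.74 and 6.83 CPM at 24 h, against 10.1, 9.91 and 9.96 CPM at 0 h, a log2 fold change of -0.56 ± 0.27 that was not called (edgeR adjusted p = 0.0926). The Ank1 body rose by 1.99 ± 0.15 (SE, edgeR adjusted p = 3.56e-06), so the ratio was -2.44 (limma adjusted p = 0.000254). Rhd, a Rh blood group protein gene, had a change in ratio of -1.99 at 24 h against 0 h (limma adjusted p = 0.00249). In Bach1, a haem-regulated repressor, the body rose by 4.13 ± 0.21 at 24 h (SE, edgeR adjusted p = 5.51e-07). The Bach1 element rose by 1.38 ± 0.47 (SE, edgeR adjusted p = 0.0227), which was not called without the first or the second 24 h library (1.35 and 1.42, adjusted p = 0.0803 and 0.0658) or the third 0 h library (1.08, adjusted p = 0.0836).

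Several elements of 1 host did not always change alike. At 13 h against 0 h, 46 hosts held at least 2 called elements, which went one way in 35 and both ways in 11, among them Runx1, Utrn, Xpr1 and Zbtb16. The counts at 24 h against 0 h were 75 hosts, 54 one way and 21 both ways. In Itgb3, the integrin beta 3 gene, the element at chr11:104478950-104481251 had 4.45 and 2.11 CPM at 13 h, against 0.214, 0.218 and 0.0378 CPM at 0 h (4.44 ± 0.63, edgeR adjusted p = 0.000142). Its neighbour at chr11:104483150-104484501 had 0.693 and 0.528 CPM at 13 h, against 1.15, 0.373 and 0.208 CPM at 0 h, which overlap. The Itgb3 body rose by 2.58 ± 0.33 (SE, edgeR adjusted p = 0.000257).

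Against the parental line, some elements had reads at 0 h and almost none in G1E. One in Atf6, a sensor of stress in the endoplasmic reticulum, had 3.10, 3.42 and 2.51 CPM at 0 h, against 0 in both G1E libraries. At 3 reads as the limit for G1E, it was at least 59.9-fold higher at 0 h (edgeR adjusted p = 3.89e-05). In Lace1 the element had 1.98, 0.901 and 1.59 CPM at 0 h, against 0.0224 and 0 CPM in G1E, a counting ratio of 91.1 (95% interval 16.2 to 3619). Vav1, a guanine nucleotide exchange factor of blood cells, had 4.55, 4.66 and 2.38 CPM at 0 h, against 0.112 and 0 CPM in G1E (5.52 ± 0.68, edgeR adjusted p = 6.13e-05). The bodies of Atf6, Lace1 and Vav1 were not called, with log2 fold changes of 0.06, -0.02 and -0.26.

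In the other direction, an element of Atxn1 had 0.0268, 0.0311 and 0.0378 CPM at 0 h, against 8.16 and 12.6 CPM in G1E, a log2 fold change of -8.17 ± 0.63 (SE, edgeR adjusted p = 1.72e-06). It had 0 and 0.0719 CPM at 13 h and 0 CPM in both 24 h libraries. Hhat, the hedgehog acyltransferase gene, had 2.19, 1.06 and 3.65 CPM at 0 h, against 31.7 and 92.9 CPM in G1E (-4.73 ± 0.51, edgeR adjusted p = 4.43e-05). Camkk2, a kinase of the calcium and AMPK pathways, had 0.107, 0.155 and 0.113 CPM at 0 h, against 3.43 and 1.72 CPM in G1E (-4.37 ± 0.50, edgeR adjusted p = 3.62e-05), and had 2.35 and 2.51 CPM at 24 h. The Camkk2 body did not pass the test in that comparison (0.18 ± 0.35, edgeR adjusted p = 0.796). The Hhat body was lower at 0 h as well (-3.48 ± 0.62, edgeR adjusted p = 0.00379), but its level was very low in both lines. It had 0.0252, 0.0775 and 0.0550 CPM at 0 h, against 0.581 and 0.628 CPM in G1E. The fusion and any other difference between the lines cannot be told apart.

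**Figure D5:**
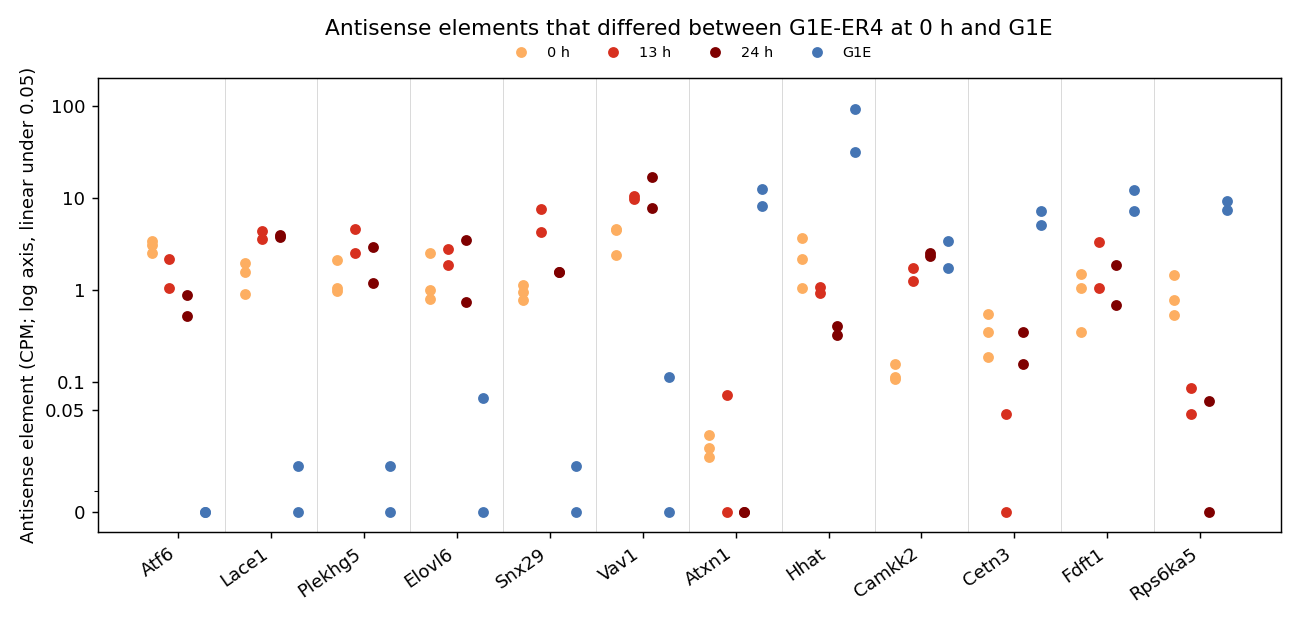
CPM of 12 antisense elements in each 0 h, 13 h, 24 h and G1E library (points, by colour), on a log axis that is linear under 0.05. Atf6, Lace1, Plekhg5, Elovl6, Snx29 and Vav1 are near 0 in G1E, and Atxn1, Hhat, Camkk2, Cetn3, Fdft1 and Rps6ka5 are higher in G1E than in every 0 h library.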

How the data were processed

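Nascent transcription was measured by PRO-seq in 9 libraries of 4 groups. The deposited gene table holds whole-number read counts over the bodies of 24391 genes, and the deposited dREG peak table holds whole-number counts for each peak or single strand of a peak, both made by the authors. Per the submitters' processing notes, BWA and build mm9 were used; not given in the sources used here were the aligner's version, the counter, the annotation and any use of strand in gene-body counting. The position inside a gene is a percent given by the authors in the deposited peak table, and 25 was the limit.

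Counts were scaled by TMM, filtered by filterByExpr over all groups and tested by edgeR's quasi-likelihood test (edgeR 4.0.16 in R 4.3.3) with all 9 libraries in 1 fit, 5 residual degrees of freedom and Benjamini-Hochberg adjustment over 35158 elements or 13825 genes at 0.05. Ratios of element to gene body were log2 values of unscaled counts with 1 count added to both, tested by limma 3.58.1 over 21721 pairs. The added count thus weighs more in libraries with fewer reads. The strand ratio, over 3880 pairs, was added after seeing the data. Read shares were tested by exact permutation (scipy 1.17.1, Python 3.11.15). Fits were tested on simulated data. Where a group had 0 reads, 3 reads over the group were the limit; with 1 to 3 reads the 95% interval of the ratio is exact and covers counting error only. Depth, given with the results, leaves weak elements untested.

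The members and the 14 gene lists were chosen with earlier results of these data known. Named elements were, among called ones with at least 50 mean reads, no overlap of groups and a host with a standard name, the 6 largest changes each way per comparison; the 5 largest ratios each way; up to 4 per gene list; and any in 17 fixed genes, of which Kit, Runx1, Bcl11a, Sox6 and Etv6 held some. Alternatives were other scalings (library totals, gene-body scaling, size factors), DESeq2 1.42.0, no filter, 0.5 and 5 added counts, replicate and library-number blocks, narrower member limits and leaving out each library. Depth-scaled added counts, a count model for the ratio and a read share without the element with most reads were added after seeing the data. Sequences of the elements were not used here. Some results are not reported here.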

Additional observations from a re-analysis of the deposited data

How the results depend on the processing

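The counts at 13 h against 0 h and at 24 h against 0 h stayed within 1.5 times under every scaling, filter, tool, added count and block run, while those at 24 h against 13 h and at 0 h against G1E did not. The 8 elements higher at 24 h against 13 h were 16 by DESeq2, 4 with gene-body scaling and 5 with library totals. The ratio counts there, 2 higher and 71 lower, were 7 higher with 5 counts added, 11 higher and 161 lower with each table's own TMM scaling, and 45 lower by the added count model. At 0 h against G1E the 44 higher and 58 lower ratios were 67 and 104 with own TMM scaling, and 99 lower with 5 counts added. Hosts at 24 h against 13 h, 265 higher and 95 lower, were 120 and 179 with library totals. Gene-body scaling moved the median of all elements by 0.19 at 13 h and 0.12 at 24 h against 0 h, and library totals by -0.16 at 24 h against 13 h. The cause was not tested.

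Same-numbered 0 h and 13 h libraries deviated together over elements (r = 0.455 and 0.395), and these pairs also share a title-number series; other same-numbered pairs ranged down to -0.048, so the replicate number was not taken as pairing all groups. With the replicate number as a block, elements higher and lower were 275 and 172 at 13 h against 0 h, 291 and 378 at 24 h against 0 h, 30 and 141 at 24 h against 13 h, and 74 and 138 at 0 h against G1E. Ratios were 173 and 110, 208 and 360, 8 and 80, and 33 and 37 in that order, and hosts 257 and 162, 429 and 236, 189 and 76, and 66 and 59. With the title-number series as a block, elements higher and lower at 13 h against 0 h were 292 and 191. Ratios were then 174 and 98 and hosts 288 and 201. At 24 h against 0 h that block gave 195 and 313 elements, 174 and 244 ratios and 399 and 232 hosts. Of the 0 h libraries, only the third shares a title-number series with the 24 h libraries. Elements at 24 h against 13 h were then 1 higher and 27 lower, ratios 0 and 0 by limma (43 and 175 at an unadjusted p under 0.05), and hosts 8 and 4. At 0 h against G1E that block gave 4 and 4 ratios and 28 and 48 hosts.

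Leaving out each library in turn gave ranges. Elements higher and lower were 215 to 310 and 86 to 193 at 13 h against 0 h, 183 to 279 and 254 to 385 at 24 h against 0 h, 0 to 20 and 15 to 139 at 24 h against 13 h (27 at an unadjusted p under 0.05 where edgeR called 0), and 18 to 75 and 41 to 178 at 0 h against G1E. Ratios were 64 to 281 and 47 to 128, 103 to 219 and 229 to 358, 0 to 3 and 0 to 90 (limma, unadjusted counts 27 to 63 and 255 to 295 where 0 were called), and 24 to 40 and 12 to 81. Hosts were 258 to 337 and 136 to 229, 415 to 475 and 221 to 260, 146 to 277 and 45 to 115, and 54 to 108 and 43 to 127. The read share differed by 0.0886 to 0.155 points at 13 h against 0 h, -0.0544 to 0.0116 at 24 h against 0 h, -0.158 to -0.128 at 24 h against 13 h and -0.134 to -0.0243 at 0 h against G1E. For named elements, ratios and hosts, 6053 of 6824 alternative values kept their direction and side of the threshold, 771 lost the call and kept the direction, and 253 of 453 results lost it in no setting.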
